A study of Mus musculus with 32 samples.

Results

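Ion channels, ion pumps, gap junction proteins and membrane transporters were examined in UB/OC-1, a mouse cell line that is conditionally immortal and was made from the embryonic organ of Corti, where the hair cells of the cochlea lie. Members were chosen by name alone: all probe sets whose single gene symbol begins with Slc and a digit, Kcn, Cacn, Scn and a digit, Clcn, Aqp, Gja, Gjb, Atp1a, Atp1b, Atp2a or Atp2b. This gave 221 probe sets for 177 genes, 150 on array design a and 71 on design b, out of 6137 genes named by a single symbol and 13057 probe sets that were not controls. The rule used no measured value. The label holds for the members by name, with 2 exceptions: Slc4a1ap and Slc9a3r1 encode proteins that bind a carrier, not carriers.

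Total RNA was taken from the line at 33 °C, where the labels call it undifferentiated (day 0), and at 39 °C, the condition under which it differentiates by the labels. Cultures of experiment A were taken each day from 0 to 9 and on days 11 and 14, those of experiment B on days 0, 2, 4 and 9. Each of these 16 cultures was hybridised to both array designs, giving 32 arrays. Day 0 has 2 arrays per design, and 3 phases follow: early, 4 arrays of days 1 to 3, middle, 5 arrays of days 4 to 7, and late, 5 arrays of days 8 to 14, so the arrays of a phase are mostly different days of experiment A. No untreated culture was kept at 33 °C past day 0, so time in culture and temperature cannot be told apart, and all groups come from 1 line. The labels do not say whether the cultures of an experiment were separate, so p-values measure the spread between these arrays alone.

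Values are intensities scaled by the authors, and a floor (141 on design a, 198 on design b) marks the level below which noise dominates. The share of member probe sets above it ran from 29.3% to 43.3% per array on design a, beside 44.3% to 50.8% of all probe sets, and from 22.5% to 45.1% on design b, beside 30.9% to 40.4%. A probe set entered the tests if it exceeded the floor on 2 or more of the 16 arrays. Differences are given in log2 with their standard error, from a linear model fitted with limma to all tested probe sets, and called at a Benjamini-Hochberg adjusted p under 0.05. Intensities of different probe sets are not compared with each other. Of the markers of the sensory epithelium, the hair cell genes Myo7a and Calb2 were above the floor on 15 and 16 arrays. The 2 probe sets of Myo6 were above it on 10 and 3 arrays, and Ocm on 2. Atoh1, the supporting cell genes Sox2 and Fgfr3, and both probe sets of Gjb2 were above it on none.

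Hearing depends on ion transport. Hair cells convert sound into a potassium current, potassium leaves them through channels and is passed on by supporting cells joined through connexin gap junctions, and pumps and cotransporters of the cochlear lateral wall return it to the endolymph. The sodium pump, an alpha subunit with a beta subunit that carries it to the membrane, drives most of these flows. Carriers of the Slc families move amino acids, sugars, phosphate, metals and nucleotides. Most of the Slc25 family work in the inner membrane of mitochondria, where Slc25a4 and Slc25a5 exchange ADP for ATP. The group of mitochondrial carriers below holds all Slc25 members by name, also Slc25a17, a carrier of peroxisomes.

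The promoters of 3 genes are shown because the results turn on them: Slc25a5, whose signal was lower on all of its probe sets, its paralog Slc25a4, which passed no test, and Atp1b1, which had the largest increase among the members. Each line gives the 250 bases before the start of the gene, 5′ to 3′ on the strand of the gene, from RefSeq for GRCm38.p6. The stretches are chrX:36795347-36795596 on the plus strand for Slc25a5, chr8:46211063-46211312 on the minus strand for Slc25a4 and chr1:164458356-164458605 on the minus strand for Atp1b1. Capitals mark matches, on either strand, to the GC box GGGCGG or to the letters CCAAT, which do not overlap each other.
Slc25a5: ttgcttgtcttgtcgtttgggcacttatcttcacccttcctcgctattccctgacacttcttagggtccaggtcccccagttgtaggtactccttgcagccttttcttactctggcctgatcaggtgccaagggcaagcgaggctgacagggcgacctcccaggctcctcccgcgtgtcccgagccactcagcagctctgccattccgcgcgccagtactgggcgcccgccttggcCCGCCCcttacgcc
Slc25a4: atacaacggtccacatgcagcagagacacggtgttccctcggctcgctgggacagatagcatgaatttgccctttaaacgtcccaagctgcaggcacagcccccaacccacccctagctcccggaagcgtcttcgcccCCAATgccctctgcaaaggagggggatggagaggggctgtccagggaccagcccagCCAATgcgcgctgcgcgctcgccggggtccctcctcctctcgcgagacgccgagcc
Atp1b1: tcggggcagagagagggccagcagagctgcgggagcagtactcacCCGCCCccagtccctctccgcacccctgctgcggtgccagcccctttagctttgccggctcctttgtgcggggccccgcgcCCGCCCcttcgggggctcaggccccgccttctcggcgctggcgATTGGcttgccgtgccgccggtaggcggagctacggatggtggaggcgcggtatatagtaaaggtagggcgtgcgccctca
The window of Slc25a5 held 1 GC box match and no CCAAT, that of Slc25a4 held 2 CCAAT matches and no GC box, and that of Atp1b1 held 2 GC box matches and 1 CCAAT. Among 32851 mouse promoter windows of the same length, 32.7% held a GC box match and 33.8% a CCAAT match, so holding either is not unusual. The shares with 2 matches or with both kinds were not counted. A match is a description of the letters and not a site of binding.

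Many members gave little or no signal, as did many of all probe sets. In all, 80 of 221 probe sets were above the floor on no array and 18 on a single array, counts that were not made for all probe sets. The remaining 123, for 103 genes, were tested, beside 7726 of all 13057 probe sets that were not controls. In the share tested the members thus lay near the background, though on each array of design a their share above the floor was the lower. Of the 123, 33 were above the floor on all 16 arrays. No probe set of the 7 for voltage-gated sodium channels (Scn genes) or of the 4 for aquaporins (water channels) was above the floor on any array. By contrast, 18 of 21 probe sets for mitochondrial carriers were tested and 10 of them were above the floor throughout. Failing the floor does not show that a gene is silent: it sets a bound on the probe set's signal.

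**Figure D1:**
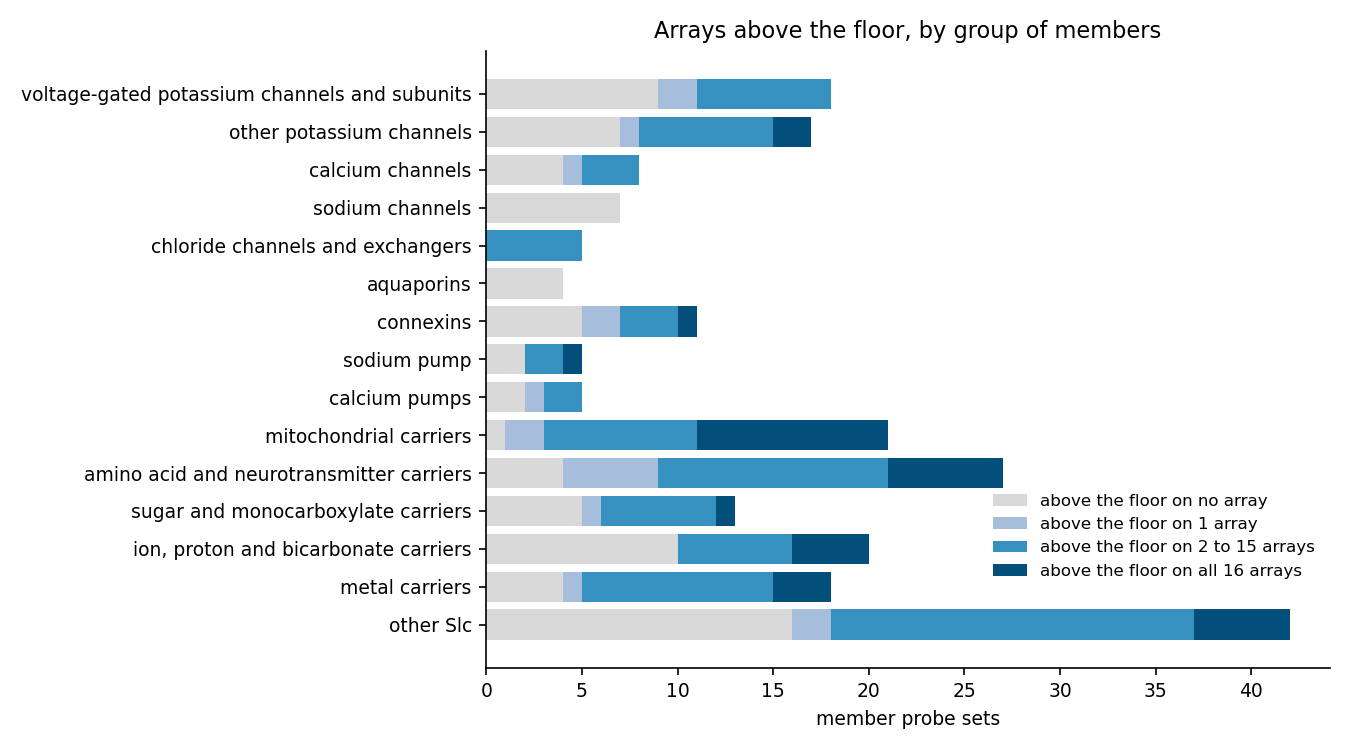
Bars show the number of member probe sets in each of 15 groups, split by the number of arrays (of 16) on which the probe set was above the floor. Sodium channels (7) and aquaporins (4) are never above it, and mitochondrial carriers have the most probe sets above it on all arrays (10).

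Few members changed between phases. Early against day 0, 3 of 123 tested member probe sets passed, all lower and all for Slc25a5, a share of 2.44% beside 3.49% of all 7726 tested probe sets. Late against day 0, 9 members passed (7.32%, beside 10.9% of all): Atp1b1, Slc27a1 and Slc38a10 were higher, and Slc25a5 on 3 probe sets, Slc6a6 on 2 and Slc20a1 were lower. Neither share lies above its background. In bulk RNA, fewer cells of a type and less RNA per cell cannot be told apart. On arrays made equal by quantile normalization the late split was 2 higher and 7 lower, and on an arcsinh scale 4 and 4. The median late difference was 0.19 for members and 0.11 for all tested probe sets, and within experiment A alone 0.02 and 0.04.

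Late against early, no member passed in the limma fit, beside 0.984% of all, and 12 members (9.76%) had an unadjusted p under 0.05, beside 10% of all. The closest was Slc27a1 on design b, with a log2 difference of 1.02 and an adjusted p of 0.0969. It passed with experiment as a block, where it was the single call. The F-test over the whole time course called 8 members (6.5%, beside 9.73% of all): 3 probe sets of Slc25a5 and 1 each of Atp1b1, Slc6a6, Slc27a1, Slc12a7 and Slc30a5. With experiment as a block the early count was 5 (4.07% of members, beside 6.07% of all in that fit), with Slc1a1 and Slc20a1 added, and the time course count 13 (10.6%, beside 16.1%). The time course calls of Slc6a6 and Slc27a1 were lost in 11 and 12 of 24 alternatives, without either day 0 culture among them.

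The clearest change among the members was in Slc25a5, an adenine nucleotide carrier. On the first probe set of design a its intensity was 2450 in experiment A and 3502 in experiment B at day 0. It was 1652, 651, 643 and 780 early (days 1, 2 and 3 of A, day 2 of B), 705, 630, 641, 586 and 679 in the middle phase (days 4 to 7 of A, day 4 of B), and 512, 662, 508, 497 and 772 late (days 8, 9, 11 and 14 of A, day 9 of B). Both day 0 arrays lie above all 14 later ones. The step was nearly complete by day 2, and day 1 lay between the levels before and after.

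The second probe set of design a gave 2920 and 3380 at day 0, 1527, 384, 747 and 899 early, and 372, 706, 605, 580 and 771 late. On design b the values were 3247 and 4136 at day 0, 1043, 437, 567 and 964 early, and 439, 617, 430, 404 and 837 late. Neither set of values overlaps between day 0 and the later phases, and day 1 is the highest array at 39 °C on all 3 probe sets. The early log2 differences were -1.77 ± 0.34, -1.99 ± 0.40 and -2.37 ± 0.52 (SE, 4 against 2 arrays, limma adjusted p of 0.0058, 0.00739 and 0.0122). Late, they were -2.33 ± 0.33, -2.41 ± 0.38 and -2.81 ± 0.50 (5 against 2 arrays, adjusted p of 0.000151, 0.000425 and 0.00107), or 5.04-fold, 5.33-fold and 7-fold lower.

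Both experiments showed the step, with late differences in experiment B of -2.18, -2.13 and -2.30. The late calls held when any single culture was left out, including either day 0 culture. The early calls were lost without the day 0 culture of experiment B, with adjusted p of 0.118, 0.0946 and 0.146 and differences of -1.52, -1.88 and -2.20. In that fit the 1 remaining day 0 array is assumed to vary like the other phases.

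Slc25a4, the paralog that is best known from heart and skeletal muscle, was measured beside it. On design a it was 2661 and 3084 at day 0 and 1340, 2418, 2713, 2202 and 3543 late, and on design b 3520 and 5017 at day 0 and 3857, 2785, 2779, 2413 and 4998 late. The phases overlap on both designs. The late log2 differences were -0.30 ± 0.29 and -0.37 ± 0.34 (adjusted p of 0.603 and 0.569). All 5 probe sets carry the ending f_at, which marks probes that several members of a family share, and signal from a related gene cannot be separated from that of the gene named. The difference between the 2 genes' changes was not tested.

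**Figure D2:**
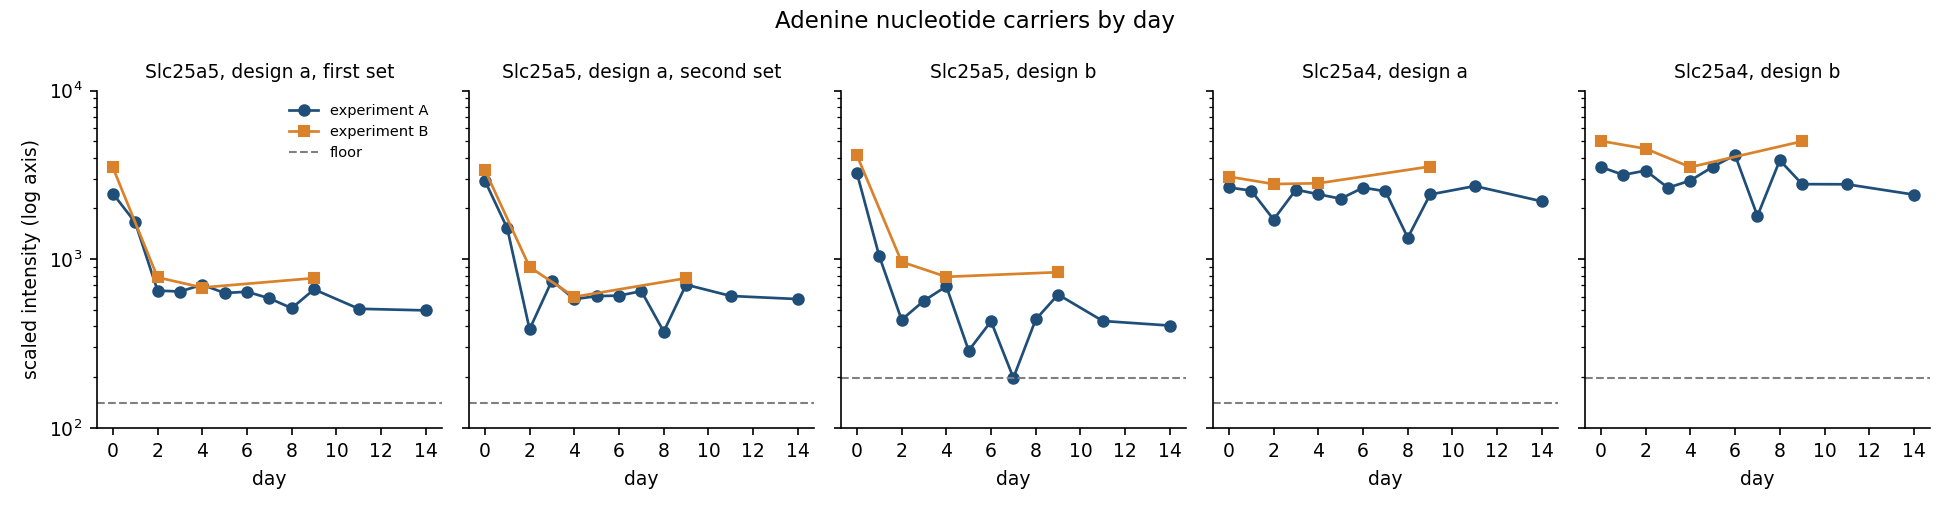
Scaled intensity (log axis) by day for the 3 probe sets of Slc25a5 and the 2 of Slc25a4. Circles are experiment A, squares experiment B, each point 1 array, and the dashed line is the floor, at which lower values are drawn. Slc25a5 lies between 2450 and 4136 at day 0 and at or below 964 from day 2 on, while Slc25a4 keeps overlapping values.

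Over all arrays and without the block, no other mitochondrial carrier passed. With experiment as a block Slc25a45, above the floor on 2 arrays, passed late (-0.43, adjusted p = 0.0344). Both arrays were of experiment A, day 0 at 241 and day 2 at 157. From day 0 to late its floored log2 value moved by -0.77 in A and by 0.00 in B, so the call rests on 1 day 0 array. Of 18 tested probe sets in this group, 3 were lower early and late (those of Slc25a5) and 15 did not pass, and the median late difference was -0.02. Slc25a1, the citrate carrier, had 2370 and 1143 at day 0 and from 1743 to 2829 late (median 2209), with a late difference of 0.44 ± 0.35. Slc25a20, which carries acylcarnitines for fatty acid oxidation, had late differences of 0.41 ± 0.38 and 0.90 ± 0.49 on its 2 probe sets (adjusted p of 0.584 and 0.300). Members named as examples of their group here and below, where they passed no test, were picked after their values were seen.

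The sodium pump gave the largest increase. Atp1b1, the beta-1 subunit, had intensities of 3493 and 4106 at day 0 and 3548, 8980, 13473 and 10075 early. It then reached 19370, 26149, 33892 and 33556 on days 4 to 7 of experiment A and 26104, 26567, 43927 and 24401 on days 8, 9, 11 and 14, while experiment B gave 5691 on day 4 and 8978 on day 9. All late arrays lie above both day 0 arrays, and the 2 experiments were close on day 2, but days 4 and 9 of experiment B lie below every array of experiment A from day 3 on. The gene had 1 member probe set, on design b.

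Late against day 0 the log2 difference of Atp1b1 was 2.61 ± 0.63 (SE, 5 against 2 arrays, limma adjusted p = 0.0106), or 6.12-fold, and the early difference of 1.10 ± 0.66 did not pass (adjusted p = 0.573). In a fit with phase by experiment, added after the data were seen, the late difference was 3.07 in A and 1.13 in B. The difference between them, -1.94 ± 0.97, did not pass (adjusted p = 0.847), in a fit where day 0 of A and each phase of B are 1 array. The late call was lost without either day 0 culture, with adjusted p of 0.0846 without A and 0.0771 without B, and differences of 2.50 and 2.73.

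The beta-3 subunit gene, Atp1b3, differed between the experiments instead. On design a it was 935, 745, 632 and 895 on days 0, 2, 4 and 9 of experiment B, above every array of experiment A, which ran from 15 to 487. At matched days the median log2 difference of B from A was 1.81, or 3.51-fold. Its late difference from day 0 was -0.74 ± 0.67 (adjusted p = 0.569), or -1.46 and -0.01 without the day 0 culture of A or B, and its design b probe set was never above the floor. Atp1b2, the beta-2 subunit, was above the floor on 4 arrays of design b, with a late difference of 0.14 ± 0.19. No alpha subunit of the pump was among the members.

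**Figure D3:**
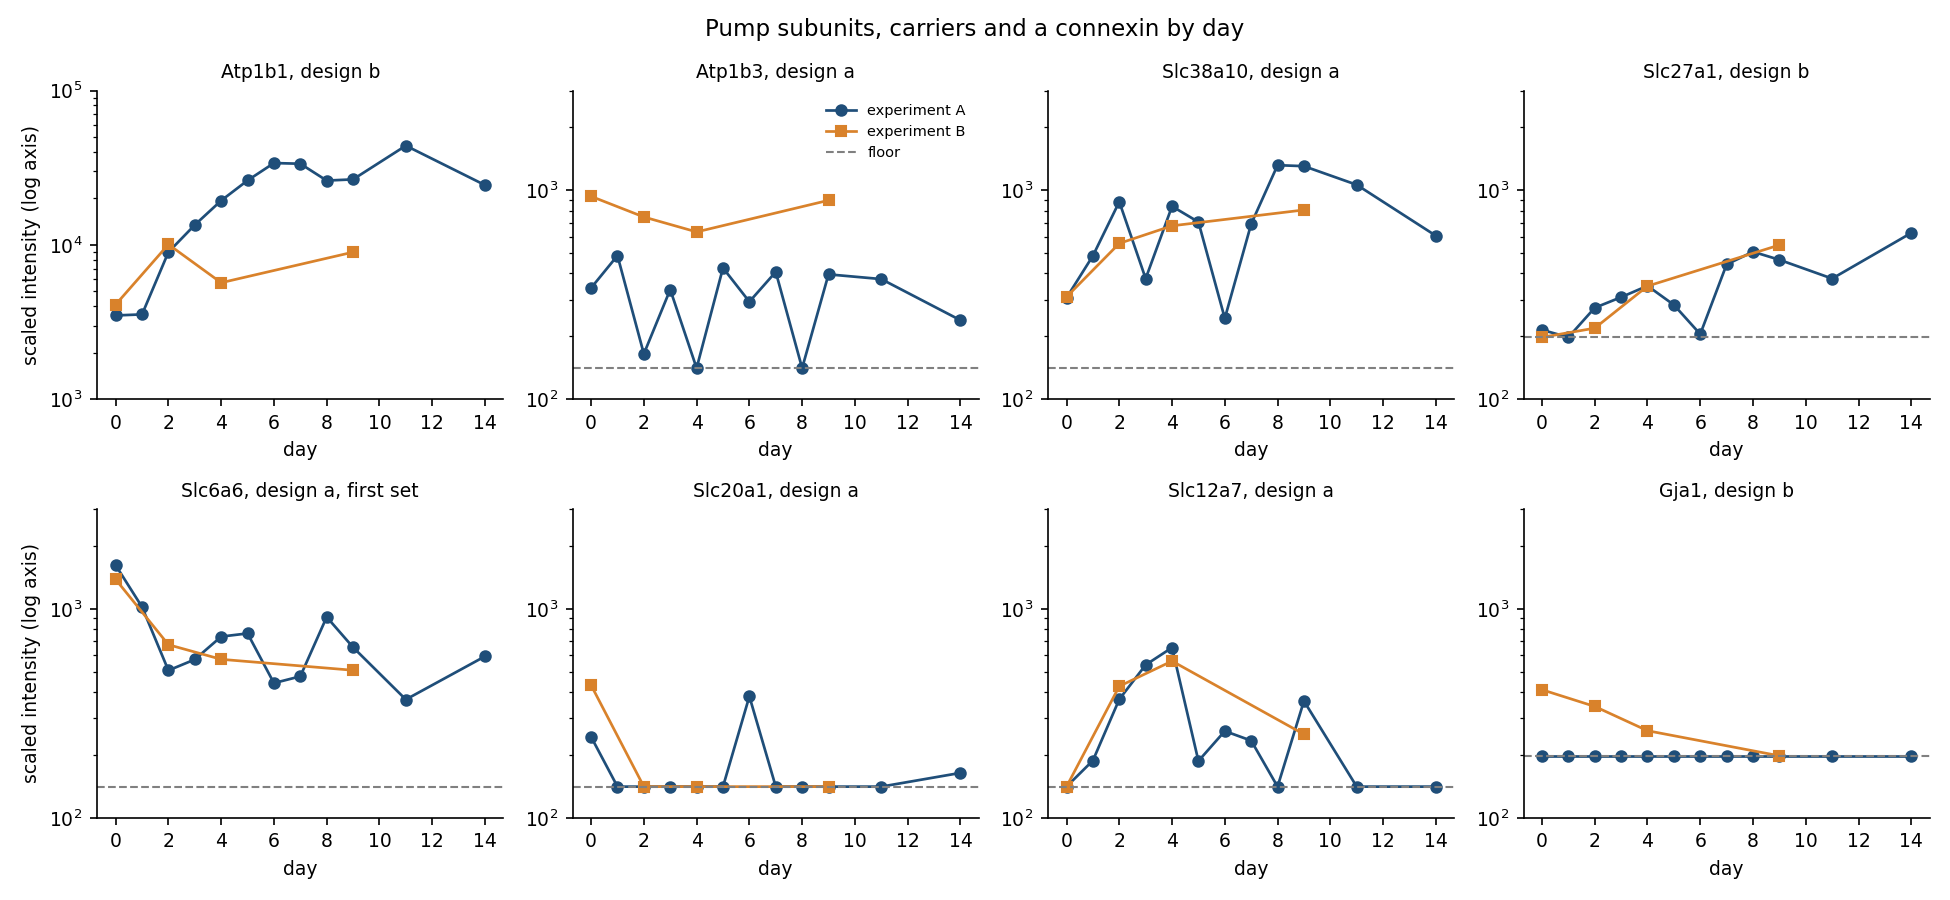
Scaled intensity (log axes, with a higher range for Atp1b1) by day for 8 members. Circles are experiment A, squares experiment B, each point 1 array, and the dashed line is the floor, at which lower values are drawn. Atp1b1 climbs from 3493 to 43927 in experiment A but reaches only 10075 in experiment B, Atp1b3 is higher in experiment B on every day, and Slc6a6 is highest on both day 0 arrays.

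Calcium pumps of the endoplasmic reticulum were weak. Of 5 probe sets 2 were tested and none passed: Atp2a2 was above the floor on 15 arrays and Atp2a1, the fast muscle form, on 8, with late differences of 0.29 ± 0.39 and 0.38 ± 0.32. All 3 probe sets of Atp2a3 failed the filter. No plasma membrane calcium pump (Atp2b) was among the members.

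Of the amino acid carriers, Slc38a10 was higher late and Slc6a6 lower. Slc38a10, of the Slc38 family of amino acid carriers, had intensities of 306 and 309 at day 0, 486, 881, 378 and 557 early, 838, 705, 244, 690 and 676 in the middle phase and 1318, 1304, 1062, 606 and 805 late. Every late array lies above both day 0 arrays, whereas day 6 of experiment A, at 244, lies below them. The late difference was 1.67 ± 0.44 (adjusted p = 0.0184), or 3.18-fold. Without the day 0 culture of A or B the adjusted p was 0.0908 and 0.126.

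Slc6a6, the taurine carrier, was measured by 3 probe sets of design a that disagree. On the first, above the floor on all arrays, the intensity was 1615 and 1382 at day 0, 1020, 507, 572 and 673 early, and 913, 654, 368, 592 and 508 late. Both day 0 arrays are above all later ones, and the late difference was -1.36 ± 0.36 (adjusted p = 0.0175), or 2.57-fold lower. The call was lost without either day 0 culture, with adjusted p of 0.117 without A and 0.0881 without B. A second probe set, with a late difference of -0.61 ± 0.19 (adjusted p = 0.048), was above the floor only on day 0 of experiment B, at 330, and on day 9 of experiment A, at 144, so its call rests on 1 array. Without that array the difference was 0.01, and with experiment as a block it was -0.54 (adjusted p = 0.0572). The third was above the floor on 3 arrays and had a late difference of 0.42 ± 0.25 (adjusted p = 0.355).

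In the whole group of amino acid and neurotransmitter carriers, 18 of 27 probe sets were tested. Late, 1 was higher, 2 were lower and 15 did not pass, and the median was 0.21. Slc6a12, a betaine and GABA carrier, had 1375 and 545 at day 0 and from 1098 to 4705 late, a difference of 1.24 ± 0.69 (adjusted p = 0.309) whose phases overlap. Its other probe set on design b does not share this signal. That set had a median of -55.5, was above the floor on 1 array (day 14 of experiment A, at 289) and was not tested. Slc6a9, a glycine carrier, had a late difference of 0.63 ± 0.36 (adjusted p = 0.323). Slc3a2, the heavy chain of several amino acid exchangers, had 0.37 ± 0.49 and 0.14 ± 0.36 on its 2 probe sets, which are of the shared f_at kind.

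Slc27a1, a fatty acid transport protein, was measured on both designs with like results. On design b its intensity was 215 and 127 at day 0, 114, 274, 308 and 219 early, 349, 283, 205, 442 and 348 in the middle phase and 508, 465, 378, 625 and 547 late. All late arrays lie above both day 0 arrays and all early ones. The late difference was 1.27 ± 0.35 (adjusted p = 0.0226), a low estimate at 2.41-fold because 1 day 0 array was at the floor. The call was lost without the day 0 culture of A or B, with differences of 1.33 and 1.21. It was also lost with the higher floor (0.37, adjusted p = 0.105) and with quantile normalization (1.17, adjusted p = 0.0504).

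On design a Slc27a1 had 523 and 253 at day 0 and 601, 1040, 1109, 1333 and 517 late, which overlap. The late difference was 1.25 ± 0.42 (adjusted p = 0.0665), and it passed with experiment as a block (1.01, adjusted p = 0.0388). At each matched day the design a signal was lower in experiment B, with a median 2-fold gap.

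Slc20a1, a sodium-dependent phosphate carrier, was above the floor on both day 0 arrays, at 244 in A and 431 in B. Of the later arrays only day 6 of experiment A, at 381, and day 14 of experiment A, at 164, were above it. Late against day 0 the difference was -1.16 ± 0.32 (adjusted p = 0.0243), a low estimate because 4 of 5 late arrays lay at or under the floor. The call was lost in 6 of 27 alternatives. Without the day 0 culture of experiment B the difference was -0.75, and with the higher floor -0.33 (adjusted p = 0.137). With no filter, an arcsinh scale and narrower phases the adjusted p was 0.0671, 0.0556 and 0.0603.

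Slc12a7, a potassium chloride cotransporter known as KCC4 that is needed for hearing in mice, changed over the time course. Both day 0 arrays were at the floor (16 and 110), early arrays gave 188, 369, 539 and 426, and day 4 gave the highest values of each experiment, 652 in A and 562 in B. Late values were 139, 362, -235, 16 and 251, of which 3 were at the floor. The time course test called it (adjusted p = 0.0287), the phase comparisons did not (early 1.33 ± 0.54, adjusted p = 0.256, late 0.44 ± 0.53, adjusted p = 0.673), and its time course call was lost in 11 of 24 alternatives, without either day 0 culture among them (adjusted p of 0.0932 and 0.0993).

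Other carriers of ions, protons and bicarbonate did not pass. In this group 10 of 20 probe sets were tested, of which 1 was lower late (Slc20a1) and 9 did not pass, and the median late difference was 0.32. Slc4a3, an anion exchanger, had a difference of 0.52 ± 0.40, Slc12a4, a potassium chloride cotransporter, 0.58 ± 0.40, and Slc8a1, a sodium calcium exchanger, 0.86 ± 0.55 on design b. Both design a probe sets of Slc8a1 were never above the floor, with highest values of 40 and 31. Slc12a2, the sodium potassium chloride cotransporter that the cochlear lateral wall uses to make endolymph, had a highest value of 65 and was never above the floor.

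Metal carriers included 1 time course call. Slc30a5, a zinc carrier, was near the floor on design b until late: only days 11 and 14 of experiment A, at 347 and 312, and day 9 of experiment B, at 211, were above it. The time course test gave an adjusted p of 0.00885, but with a lower floor 0.246, and the late difference was 0.31 ± 0.18 (adjusted p = 0.323). Its design a probe set, above the floor on 7 arrays, had a late difference of -0.30 ± 0.21 and did not pass the time course test (adjusted p = 0.747). Ties at the floor have no spread of their own, which can make p too small. In the group 13 of 18 probe sets were tested, none passed late and the median was -0.03. Slc41a1, a magnesium carrier, had the largest late difference of the group, 0.95 ± 0.32 (adjusted p = 0.0684), and passed with experiment as a block (1.03, adjusted p = 0.0212).

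Sugar and monocarboxylate carriers did not pass in any phase comparison (7 of 13 probe sets tested, median late difference -0.08). Slc2a1, the widespread glucose carrier, had 390 and 298 at day 0 and from 237 to 405 late, a difference of -0.08 ± 0.41. Slc16a1, a lactate carrier, had late differences of -0.63 ± 0.22 on design a, where it was above the floor on 3 arrays, and -0.47 ± 0.43 on design b. On design a its floored log2 value moved by -1.27 in B, where each phase is 1 array, and by 0.00 in A. Slc2a8 had 0.83 ± 0.39 (adjusted p = 0.218).

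Of the remaining Slc probe sets, 24 of 42 were tested, 1 was higher late (Slc27a1), 23 did not pass, and the median was 0.16. Slc22a17 had a late difference of 1.20 ± 0.42 (adjusted p = 0.0815) and passed with experiment as a block (0.93, adjusted p = 0.0291). Slc35e4 had -1.08 ± 0.37 (adjusted p = 0.0736). For Slc22a17 the day 0 arrays lay far apart, at 279 in A and 11 in B.

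Potassium channels passed no test over all arrays without the block, and with it Kcnj6 passed the time course test. Of the voltage-gated channels and their subunits 7 of 18 probe sets were tested, with a median late difference of 0.32. Kcnd1 had 291 and 185 at day 0 and from 280 to 763 late, a difference of 0.98 ± 0.45 (adjusted p = 0.199). Kcne1, which with Kcnq1 forms the channel that secretes potassium into the endolymph, was above the floor on 14 arrays, from 171 to 460 over all arrays, with overlapping phases and a late difference of 0.32 ± 0.40 (adjusted p = 0.693), which was 0.91 without the day 0 culture of A and -0.28 without that of B. Kcnq1 itself was above the floor on 1 array, day 1 of experiment A, at 206.

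Of 17 probe sets for other potassium channels 9 were tested, with a median of 0.00 late. Kcnma1, the large-conductance calcium-activated channel of mature hair cells, was above the floor on 7 arrays, all of experiment A, at 386 on day 0 and at 47, 98, 288 and 169 late. In experiment B it stayed between 24 and 58. Its late difference was -0.47 ± 0.34 (adjusted p = 0.471), and it turned to 0.26 without the day 0 culture of A and to -1.19 without that of B. Kcnn1, a small-conductance calcium-activated channel, was above the floor on all arrays, from 418 to 1581, with a late difference of 0.43 ± 0.37. Kcnj11, a subunit of ATP-sensitive channels, had -0.18 ± 0.58.

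Calcium and chloride channels passed no test either. Of 8 calcium channel probe sets 3 were tested, for Cacna1b, Cacna1c and Cacnb2, with late differences of 0.22 ± 0.25, 0.60 ± 0.50 and 0.30 ± 0.42. Cacna1d, the channel that triggers transmitter release in inner hair cells, was above the floor on 1 array, day 3 of experiment A, at 166. All 5 probe sets of the Clcn family were tested, with a median of 0.28. Clcn3, an endosomal chloride proton exchanger, had 173 and 164 at day 0, both at the floor, and from 187 to 583 late, a difference of 1.03 ± 0.40 (adjusted p = 0.122).

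Connexins, the subunits of gap junctions, had 4 of 11 probe sets tested and none called, with a median late difference of 0.08. Gjb1 was above the floor on all arrays, at 636 and 401 at day 0 and at 876, 877, 866, 1066 and 535 late, a difference of 0.71 ± 0.42 (adjusted p = 0.352). Gja1, the most widespread connexin, was above the floor only in experiment B, at 410, 341 and 261 on days 0, 2 and 4, and was at 113 on day 9. All 12 arrays of experiment A were at or below 132, so its change is seen in a single experiment. From day 0 to late its floored log2 value moved by -1.05 in B, where each phase is 1 array, and by 0.00 in A, where every array was at the floor.

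The 2 connexins of the cochlear supporting cells whose mutations are common causes of deafness gave no usable signal. Both Gjb2 probe sets were below 0 on every array, at most -14 and -2. Gjb6 was above the floor on 1 array of design a, day 9 of experiment B, at 142, and on none of design b. The water channels of the inner ear, Aqp1 and Aqp4, had highest values of -23 and, on the 2 designs, 43 and 110. None of Kcnj10, Kcnn2, Slc26a4, Slc26a5, Slc17a8, Slc1a3, Slc4a7 or Aqp5 was among the member probe sets.

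**Figure D4:**
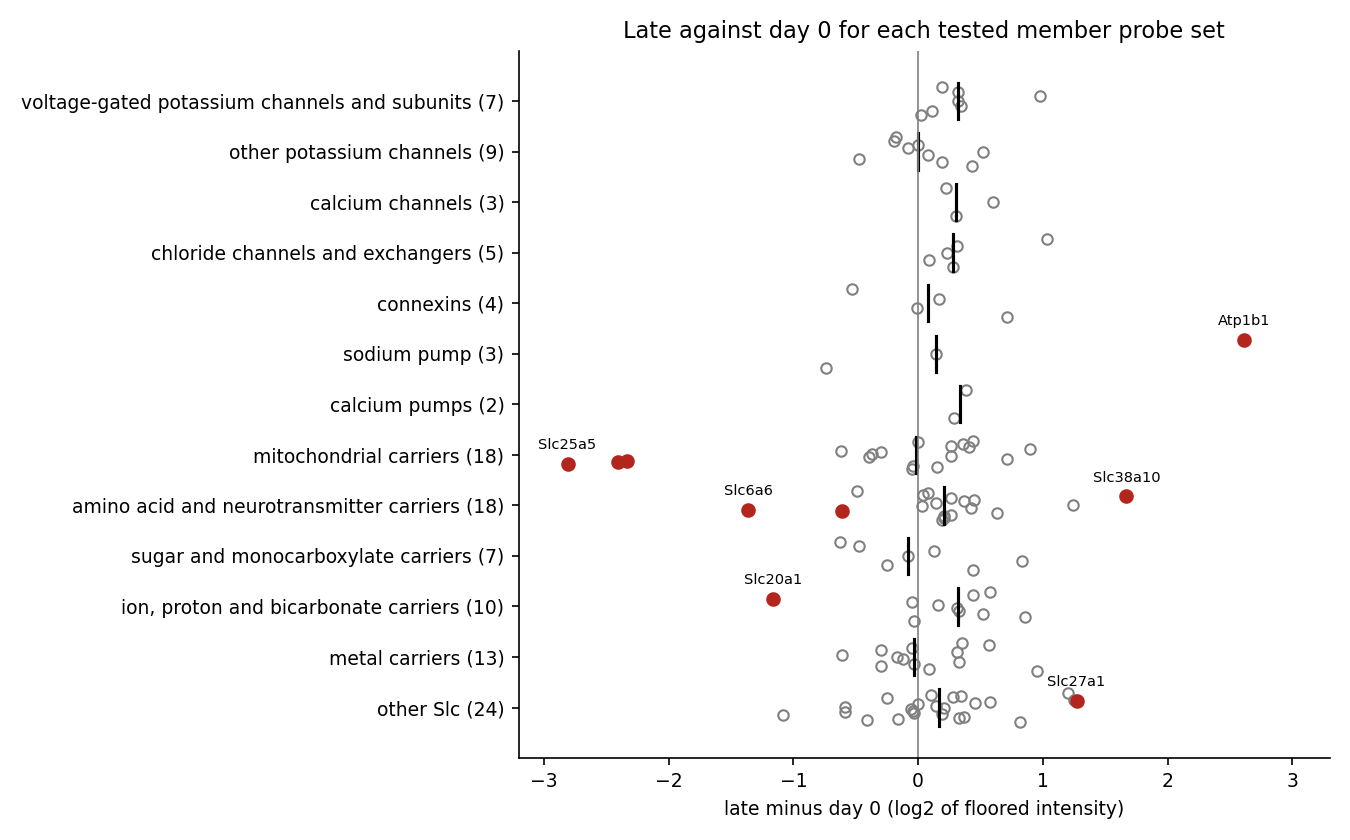
Each point is the late minus day 0 log2 difference of 1 of 123 tested member probe sets, by group (number tested in brackets), with black bars at group medians. Filled points have an adjusted p under 0.05, and the 3 filled points of the mitochondrial carriers are all Slc25a5, as both of those left of 0 among the amino acid carriers are Slc6a6. Most open points lie within 1 log2 unit of 0, and the largest values are -2.81 for Slc25a5 and 2.61 for Atp1b1.

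Experiment B lay above A on all 4 matched days for 14 of 123 tested members (11.4%, beside 15.6% of all tested probe sets) and below A for 16 (13%, beside 17.6%). Beside Atp1b3, those above were led by Slc44a2, a choline transporter-like protein, at 0.68. Those below were led by Slc25a47 at -1.31 and Slc6a12 at -1.21, the latter on its only tested probe set.

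A wider list of related transport genes outside the naming rule, drawn up with earlier results known, had 61 probe sets, 38 of them tested. Late against day 0, 3 were higher and 2 lower (13.2%, beside 10.9% of all). The higher ones were all subunits of the membrane part of the vacuolar proton pump, which acidifies lysosomes and endosomes. Atp6v0e was 880 and 817 at day 0 and from 1590 to 2340 late, with no overlap (1.17 ± 0.24, adjusted p = 0.00299). Atp6v0b rose by 0.95 ± 0.27 (adjusted p = 0.0305) and Atp6v0d1 by 1.26 ± 0.39 (adjusted p = 0.0416). Without the day 0 culture of experiment B the last 2 were lost (0.55 and 0.54, adjusted p of 0.541 and 0.728). Over all alternatives the call of Atp6v0b was lost in 6 of 25 and that of Atp6v0d1 in 13 of 25, quantile normalization among the latter.

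In all, 9 proton pump probe sets were tested, 3 passed and 6 did not. Not all of the membrane part passed: Atp6v0a2 had 0.52 ± 0.26 on design a (adjusted p = 0.249). Its design b probe set and that of Atp6v0a1 were never above the floor. All 9 late differences were above 0, beside 4789 of all 7726 tested probe sets. That of Atp6v1g1 was -0.02 without the day 0 culture of experiment A. Atp6v1e1 gave 2 of the 9, both of the shared f_at kind. The related genes called lower late were Abce1 on 1 of its 2 probe sets (-1.62) and Gjc1, a connexin that the rule leaves out by name (-0.51). The voltage-dependent anion channels of the outer mitochondrial membrane did not pass: Vdac1 had -0.59 and -0.67, Vdac2 -1.02 and Vdac3 -1.02.

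Markers of other cell types were measured beside these changes. Of the muscle list, 5 of 6 probe sets were tested, with a summed intensity (negative values as 0) from 2061 to 4033 at day 0 and from 2928 to 4559 late, and none was called. Of the macrophage list, 2 of 4 were tested, with sums from 920 to 3629 at day 0 and from 2081 to 10119 late, none called. Lyz2 was above the floor on all 16 arrays, from 786 to 9588, and Cd68 on 14, while Csf1r and Adgre1 were never above it. In the neuron list Tubb3 was called lower late, and its 16 arrays ran from 275 to 1954, while Snap25 was never above the floor and Nefl on 1 array. The hair cell list had 816 to 1339 at day 0 and 1343 to 2085 late, with none called. The endothelial and melanocyte lists had no call late: Pecam1, Cdh5 and Mitf were never above the floor, while Kdr was above it on 13 arrays, Tek on 4 and Dct on all 16, from 278 to 2456. The part of these markers in the changes of the members was not tested.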

How the data were processed

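Intensity values were used as the authors deposited them: linear, scaled whole numbers per probe set, with trimmed means of 300.4 to 300.8 per array. No label or header names the software or the background method. All 16 value columns of each design were used and none was left unused. After 61 control probe sets per design were left out, values below the floor (per design, the percentile 75 of the sizes of its negative values) were set to it and log2 was taken. Probe sets above the floor on at least 2 arrays were tested, per design, with limma 3.58.1 in R 4.3.3 (lmFit, eBayes with trend and robust). Benjamini-Hochberg adjustment covered both designs together, with 12 residual degrees of freedom, and tests were two-sided. Change over all days was tested with an F-test on a natural spline (3 degrees of freedom). The number of arrays limits the precision.

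Days of 1 experiment carry its letter in the labels. Over probe sets, the differences of B from A on 1 matched day correlated with those on another. Of 6 pairs, r was 0.326 at the lowest and 0.702 at the highest, so the experiment pairs the samples. The main fit leaves this pairing out, and an alternative fit had experiment as a block. There, of the 9 late calls of members, only that of the second Slc6a6 probe set was lost. Slc25a45, Slc41a1, Slc22a17 and Slc27a1 on design a were added. Other alternatives were a lower and a higher floor, no filter, quantile normalization, an arcsinh scale, eBayes without trend and robust, experiment A alone, narrower phases and leaving out each culture. The fit with phase by experiment was added after the data were seen. The fits were tested on simulated data.

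Symbols came from the platform annotation, and all 221 member probe sets matched RefSeq by gene identifier. The members and lists were chosen with earlier results of these data known. Named genes were the members called in any comparison and a list of inner ear genes, with other members given as examples.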

Additional observations from a re-analysis of the deposited data

Results flagged for a closer look

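Among the phases of 4 or 5 arrays, 36 were examined, those of probe sets that passed a test or that belong to the inner ear genes Gja1, Kcne1 and Kcnma1, and 7 held an array far from the others. Chance marks about 1 in 20 such groups, and 5 of the 7 are single arrays above others tied at the floor. Slc20a1 was at 381 on day 6 of experiment A, where the next middle array was at 52, and at 164 on day 14, where the next late array was at or below the floor. The second probe set of Slc6a6 was at 144 on day 9 of experiment A. Gja1 was at 341 on day 2 and at 261 on day 4 of experiment B.

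In the other 2, the nearest array was also above the floor. Slc38a10 was at 244 on day 6 of experiment A, below the other middle arrays, the next of which was at 676. Kcnma1 was at 288 on day 11 of experiment A, where the next late array was at 169.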

How the results depend on the processing

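The number of members called late stayed between 6 and 12 under every alternative. It was 6 with the higher floor (7.32%, beside 13.7% of all) and 12 with experiment as a block (9.76%, beside 14.5%). With experiment as a block, 5 members passed early (4.07%, beside 6.07% of all), 1 late against early (0.813%, beside 2.38%) and 13 in the time course test (10.6%, beside 16.1%). Quantile normalization gave 5 early (4.03%, beside 3.57%), eBayes without trend and robust 1 late against early (0.813%, beside 1.32%), and experiment A alone 4 in the time course test (3.25%, beside 7.18%). Leaving out 1 culture at a time gave 2 to 6 members early, 6 to 11 late, 0 late against early and 4 to 11 in the time course test. Without the day 0 culture of experiment B fewer members passed early, late and in the time course test, and so did a smaller share of all probe sets. Without that of experiment A more members passed early, at a like share of all. The early calls of experiment A alone were Slc1a1, Slc25a45 and Slc35c2, with no Slc25a5. The second probe set of Slc6a6 changed sign, to 0.01, in experiment A alone, without the day 0 culture of B and for A in the fit with phase by experiment. With 1 culture left out its late difference ran from -1.22 to 0.01, and its call held in 2 of 26 alternatives. The 2 day 0 arrays, ties at the floor and an unknown background correction limit all values. Where only 1 array remains at day 0, it is assumed to vary like the other phases.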
